A study of Mus musculus with 6 samples.

Results

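Transcripts of 10 presynaptic genes were followed across the cell classes and 6 libraries of a single nucleus RNA-seq (snRNA-Seq) study of the mouse prelimbic region (PL) of the medial prefrontal cortex. The genes were taken by symbol from the gene list of the count files, where all 10 of 10 were found among 32285 genes, and the rule uses no measured value. They are the calcium sensors Syt1 and Syt2, the membrane fusion protein Snap25 and the fusion regulator Stxbp5l, and the active zone scaffolds Rims1, Rims2, Erc1, Erc2, Bsn and Pclo.

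Neurons release transmitter when an action potential opens calcium channels at the active zone, a patch of presynaptic membrane where vesicles wait docked and primed. Scaffold proteins of the RIM, ELKS, Bassoon and Piccolo kinds hold vesicles and channels close together, SNARE proteins such as SNAP-25 pull vesicle and plasma membrane into contact, and synaptotagmins bind the incoming calcium and trigger fusion. Fast-spiking parvalbumin (PV) interneurons of the cortex are known for synaptotagmin-2, whereas synaptotagmin-1 is the calcium sensor of most other forebrain neurons.

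The samples came from male C57BL/6 mice raised by mothers that had a running wheel (Run) or none (Sed) before weaning, and kept after weaning in groups (GH) or alone (SI) in cages without a wheel. The labels give an age of P21, the day of weaning, while the study's methods describe adult tissue. Cohort 1 held 1 Run GH and 1 Sed GH library from animals that had been through tube tests of dominance, and cohort 2 held 1 library each of Run GH, Run SI, Sed GH and Sed SI from animals with no earlier behavioural test. The study took the cohort 1 males by rank, from the top and the bottom of their group, and cohort 2 males had no rank. Each library was a pool of 3 males, so that n counts libraries and spread between animals was not measured. Cohort, behavioural history, choice by rank and snRNA-Seq experiment cannot be told apart.

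Limits were set on genes and mitochondrial UMIs (unique molecular identifiers, counted transcripts), with a minimum of UMIs per barcode. After these, 4998 to 9936 nuclei per library were left. They held a median of 1637 (Sed GH, cohort 2) to 6250 (Sed GH, cohort 1) UMIs per nucleus. Without that minimum, 82376 and 103391 barcodes passed in Run GH and Sed GH of cohort 1. Libraries shared 5 to 22 nucleus barcodes per pair, at most 0.43% of the smaller library. Droplets below the nucleus limit held a median UMI count of 19.1% and 18.8% of a nucleus in cohort 1 and of 4.25% to 7.71% in cohort 2. Classes were named from marker genes after clustering without the 10 genes. Pyramidal markers summed to 1706 to 1811 CPM (UMIs of a gene per 1000000 UMIs of the summed nuclei) in pyramidal nuclei and to 365 to 864 in PV, SST, VIP and NPY interneurons and astrocytes, but to 879 to 1395 in oligodendrocytes and 1109 to 1464 in microglia. PV markers summed to 1236 to 1662 CPM in PV nuclei, although Vipr2 was at 0 there in 5 of 6 libraries. In VIP nuclei of Sed GH, cohort 2, 4 of 6 VIP markers (Crh, Penk, Calb2 and Htr3a) were at 0. Over all libraries VIP nuclei held VIP markers at 169 to 357 CPM, PV markers at 433 to 733 CPM and NPY markers at 314 to 655 CPM. VIP markers summed to at most 55.3 CPM in NPY, 30.9 CPM in SST and 21.3 CPM in PV nuclei. General inhibitory markers summed to 1569 to 2171 CPM in SST nuclei and to 6181 to 12278 in the other interneuron classes.

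**Figure D1:**
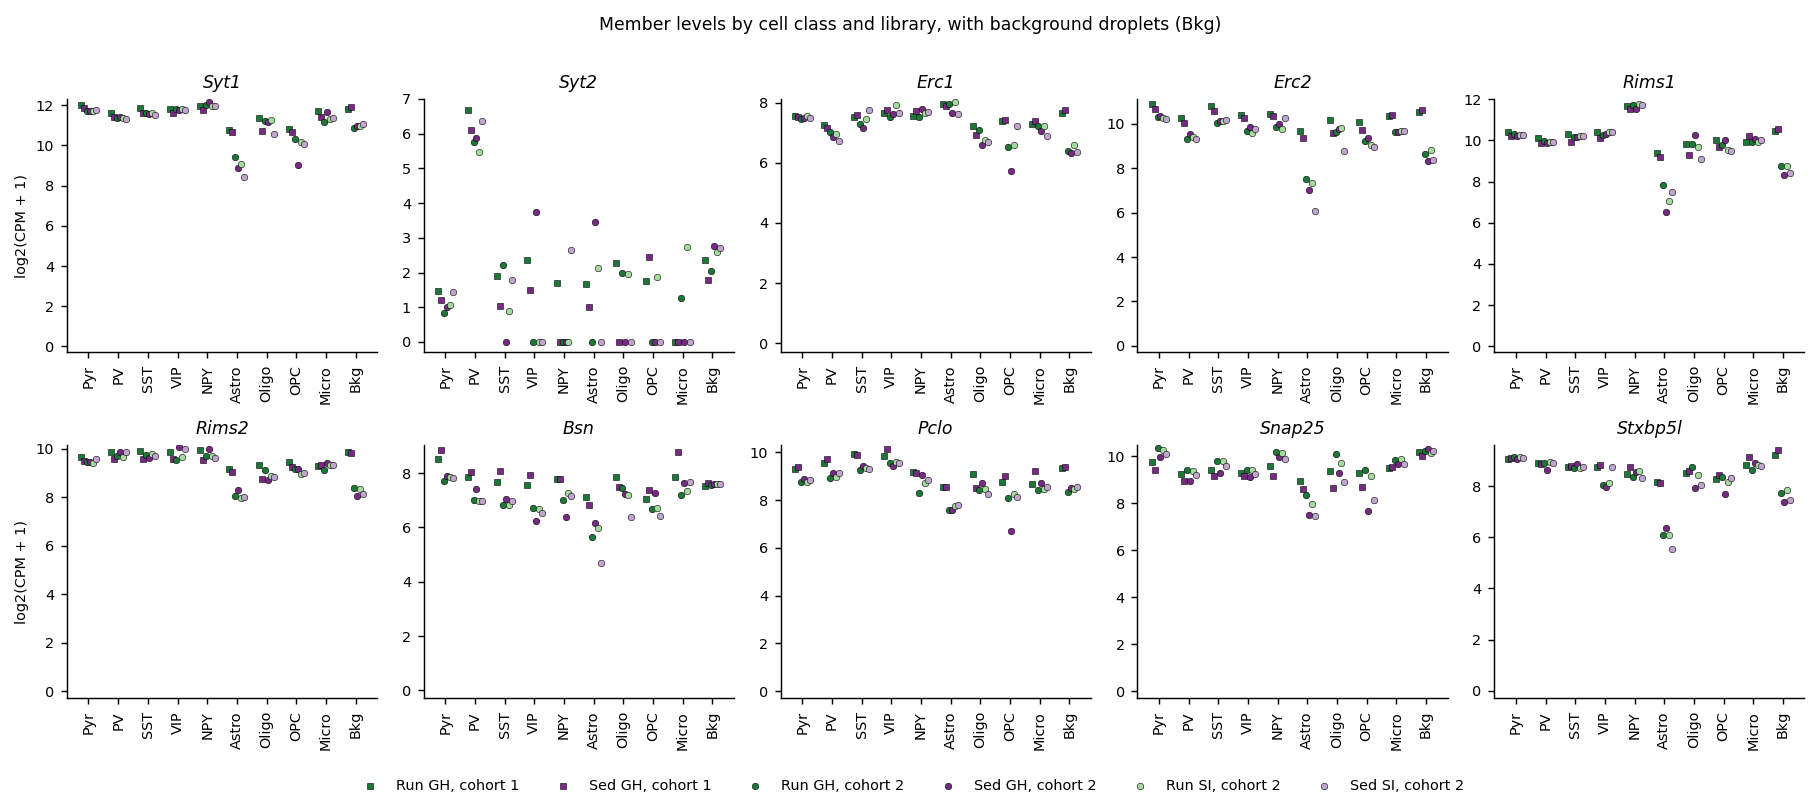
Level of each of the 10 genes on a log2(CPM + 1) axis by cell class (Pyr, pyramidal; Astro, astrocyte; Oligo, oligodendrocyte; OPC, oligodendrocyte precursor; Micro, microglia) and in background droplets (Bkg), with 1 point per library. Syt2 stands at 43.7 to 101 CPM in PV interneurons and at 0 to 12.3 CPM elsewhere, and Rims1 stands at 2930.1 to 3466 CPM in NPY interneurons, above its range in every other class.

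The calcium sensors differed in their spread over cell classes: Syt2 stood out in PV interneurons only, and Syt1 was found there too. Syt1 (chr10:108497650-109010982, minus strand, GRCm38, GENCODE M21 annotation) was found in every neuron class, with CPM of 4119 and 3765 in the Run GH and Sed GH pyramidal nuclei of cohort 1, and of 3391, 3327, 3398 and 3435 in Run GH, Run SI, Sed GH and Sed SI of cohort 2. Its medians ran in the order NPY (4018 CPM), VIP (3535), pyramidal (3417), SST (3131), PV (2671), microglia (2666), oligodendrocytes (2376), oligodendrocyte precursors (1223) and astrocytes (616), and in this order of 9 classes each range overlapped that of the next. PV interneurons (2596 to 3135 CPM) and astrocytes (342 to 1774 CPM) lay apart. Both cohort 1 pyramidal values lay above the 4 of cohort 2. Background droplets held Syt1 at 3659 and 3889 CPM in Run GH and Sed GH of cohort 1 and at 1884 to 2117 CPM in cohort 2. The PV level was 0.86 and 0.70 times that of droplets in cohort 1 and 1.23 to 1.40 times in cohort 2. In microglia the Syt1 level was 0.91 and 0.69 times that of droplets in cohort 1 and 1.24 to 1.61 times in cohort 2.

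Syt2 (chr1:134646677-134762593, plus strand) was found in PV interneurons at 101 CPM in Run GH and 67.4 in Sed GH of cohort 1, and at 52.8, 43.7, 57.5 and 81.4 in Run GH, Run SI, Sed GH and Sed SI of cohort 2. These levels rest on 189, 70, 57, 51, 16 and 46 Syt2 UMIs in the same order. No other class overlapped them: the medians elsewhere were 0 to 1.75 CPM, background droplets held 2.44 to 5.84 CPM, and pyramidal nuclei held 0.78 to 1.77 CPM. The highest value outside PV nuclei, 12.3 CPM in VIP nuclei of Sed GH, cohort 2, was a single UMI.

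The share of PV nuclei with at least 1 Syt2 UMI ran from 7.29% (Sed GH, cohort 2, median 1342.5 UMIs per PV nucleus) to 32.2% (Run GH, cohort 1, median 5062), against 0.20% to 1.11% of pyramidal nuclei (medians of 1697 to 6611 UMIs). After thinning every nucleus to 1000 UMIs the share was 9.91% in Run GH, cohort 1 (exact 95% binomial interval 6.88 to 13.7), and 2.86% to 6.52% in the other libraries, against 0.05% to 0.20% of pyramidal nuclei. Of PV nuclei, 143 of 192 in Sed GH, cohort 2, reached that depth, and all did in the other libraries. NPY nuclei of Sed GH, cohort 1, held no Syt2 UMI in 44 nuclei, which allows a share of nuclei with a UMI of up to 6.82% and sets no limit on nuclei that express the gene. Intervals and limits of this kind cover counting error only. Syt2 shares its last 7.94 kb with Ppp1r12b on the other strand, and the strand setting of the counting is not given in the sources used here. Ppp1r12b had medians of 206 CPM in PV and 199 CPM in pyramidal nuclei.

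Since the pair differed so much in which classes held them, the 250 bases before a start of each are shown (RefSeq, GRCm38.p6, from the gene's strand). RefSeq gave 2 starts for each, and the outermost is printed. In all 5 motifs were searched on both strands, and each was counted in 32851 promoter windows of the same length. The TATA box, searched as TATAAA, stood in 12.4% of these windows. The box named for its letters CCAAT stood in 33.8% of them, and the GC box, searched as GGGCGG, in 32.7%. The cAMP response element, searched as TGACGTCA, stood in 1.55% of all windows, and the E box, where any base may fill the places written N in CANNTG, in 66.2%. Capitals mark CCAAT boxes and GC boxes on either strand. Syt1 (chr10:109010976-109011225, minus strand, GC content 56.4%) held 2 CCAAT boxes and 1 GC box, and Syt2 (chr1:134646362-134646611, plus strand, GC content 76%) held 3 GC boxes and no CCAAT box, with no overlap between motifs. The counts differed at the inner starts, where Syt1 (chr10:109009112-109009361, GC content 42.8%) held neither box and Syt2 (chr1:134709050-134709299, GC content 66.4%) held 1 CCAAT box and 2 GC boxes. The count of GC boxes was thus higher in Syt2 at both starts, while that of CCAAT boxes was higher in Syt1 at the outer and in Syt2 at the inner start.
Syt1: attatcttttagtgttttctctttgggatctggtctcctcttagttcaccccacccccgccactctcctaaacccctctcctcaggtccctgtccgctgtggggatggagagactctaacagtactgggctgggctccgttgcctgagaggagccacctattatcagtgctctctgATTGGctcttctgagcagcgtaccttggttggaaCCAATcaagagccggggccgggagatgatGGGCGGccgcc
Syt2: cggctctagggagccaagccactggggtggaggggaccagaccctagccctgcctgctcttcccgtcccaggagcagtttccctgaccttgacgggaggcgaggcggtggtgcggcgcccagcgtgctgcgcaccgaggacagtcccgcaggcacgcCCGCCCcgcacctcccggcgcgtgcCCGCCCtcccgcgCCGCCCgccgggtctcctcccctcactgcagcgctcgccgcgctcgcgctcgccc
These are matches of letters and not sites of binding. Windows were found for 8 of the 10 genes, and none of their 10 windows held a TATA box or a cAMP response element.

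Both genes of the fusion machinery had UMIs in every class and their highest median in pyramidal nuclei. Snap25 (chr2:136713453-136782428, plus strand), which encodes the SNARE protein of the plasma membrane, was at 851 and 689.8 CPM in Run GH and Sed GH pyramidal nuclei of cohort 1 and at 1297, 1233, 987 and 1091 CPM in Run GH, Run SI, Sed GH and Sed SI of cohort 2. In PV interneurons it was at 486 to 682 CPM and in astrocytes at 173 to 493 CPM, below its level in background droplets (1015 to 1268 CPM) in every library. The Run library of each pair was above its Sed partner in pyramidal nuclei, while both cohort 1 libraries were below all 4 of cohort 2. Per kilobase of gene span, which takes in introns because intronic reads were counted, Snap25 had the highest level of the 10 genes in pyramidal and PV nuclei of all 6 libraries (median 15.1 CPM per kb in pyramidal nuclei), and Syt1 came next (6.66 CPM per kb). Stxbp5l (chr16:37114942-37384962, minus strand) encodes tomosyn-2, which binds syntaxin and holds back SNARE assembly. It was at 527 to 566 CPM in pyramidal nuclei, above and apart from PV interneurons at 399 to 486 CPM, and at 45.4 to 284 CPM in astrocytes.

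Among the scaffolds, Rims1 (chr1:22286251-22805994, minus strand), which tethers calcium channels and primes vesicles, was by far the most restricted in its peak. In NPY interneurons it was at 3228 and 2930.1 CPM in Run GH and Sed GH of cohort 1 and at 3341, 3466, 2961 and 3343 CPM in Run GH, Run SI, Sed GH and Sed SI of cohort 2. VIP interneurons came next at 1098 to 1368 CPM, so that the NPY range lay apart from all other classes in all 6 libraries. In the order below, VIP, pyramidal (1180.5 to 1368 CPM) and SST (979 to 1283 CPM) ranges overlapped. Rims2 (chr15:39198261-39684372, plus strand), a close relative, showed no such peak: PV (753 to 938 CPM), VIP, SST and NPY ranges overlapped, and pyramidal nuclei stood at 687 to 804 CPM.

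Erc1 and Erc2 encode ELKS scaffolds that bind RIM. Erc1 (chr6:119570796-119848167, minus strand) was the only scaffold with its highest median in astrocytes, at 241 CPM (194 to 257), which overlapped NPY interneurons at 184 to 221 CPM. Erc2 (chr14:27622428-28478537, plus strand) was at 1905 and 1623 CPM in Run GH and Sed GH pyramidal nuclei of cohort 1 and at 1254, 1227, 1304 and 1213 CPM in Run GH, Run SI, Sed GH and Sed SI of cohort 2, and in astrocytes of cohort 2 it was at 66.0 to 180 CPM. Bsn (chr9:108096022-108190384, minus strand) and Pclo (chr5:14514918-14863459, plus strand) encode Bassoon and Piccolo, very large proteins that organise the active zone. Bsn had its highest median in pyramidal nuclei, at 368 and 456 CPM in cohort 1 and 207 to 235 CPM in cohort 2. Pclo had its highest median in VIP interneurons (764 CPM, 678 to 1127), above pyramidal nuclei in 6 of 6 libraries.

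Each class was then set against pyramidal nuclei with the library as a block (edgeR quasi-likelihood test on summed UMIs, 6 libraries a class, Benjamini-Hochberg adjustment over all genes tested, called at an adjusted p under 0.05). All log2 fold changes below use TMM scaling (a trimmed mean of ratios between sums) unless stated. In PV interneurons 1 of 10 genes was higher, against 20.8% of all genes, and 7 were lower, against 23.2%. Syt2 was higher by a log2 fold change of 5.55 (SE 0.146, adjusted p = 4.96e-20), in 6 of 6 libraries. Erc2 (-0.98), Snap25 (-0.96), Bsn (-0.91), Erc1 (-0.66), Syt1 (-0.56), Rims1 (-0.52) and Stxbp5l (-0.41) were lower, each in 6 of 6 libraries, with adjusted p values of 8.09e-05 or less. Rims2 (0.07, SE 0.0711) and Pclo (0.08, SE 0.0739) did not pass.

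In SST interneurons 1 gene was higher (16.8% of all genes) and 6 were lower (20.4%). Pclo was higher by 0.39 on the log2 scale (SE 0.0716, adjusted p = 1.63e-05), and Bsn (-1.01), Snap25 (-0.62), Stxbp5l (-0.50), Syt1 (-0.32), Erc2 (-0.30) and Rims1 (-0.26) were lower. In VIP interneurons 1 gene was higher (13.4%) and 4 were lower (16.1%), namely Pclo at 0.57 (SE 0.0974, adjusted p = 6.34e-08), and Bsn (-1.17), Snap25 (-0.82), Stxbp5l (-0.76) and Erc2 (-0.67). Higher Pclo depended on the settings: with nuclei thinned to 1000 UMIs it was at 0.14 in VIP (adjusted p = 0.556, not called) and 0.25 in SST interneurons (adjusted p = 0.0474), and without the library block at 0.50 (adjusted p = 0.123) and 0.45 (adjusted p = 0.166), not called in either. In NPY interneurons 1 gene was higher (9.81%) and 5 were lower (17.5%). Rims1 was higher there by 1.09 (SE 0.0881, adjusted p = 7.6e-34) in 6 of 6 libraries, and Bsn (-1.06), Stxbp5l (-0.86), Erc2 (-0.60), Snap25 (-0.42) and Pclo (-0.40) were lower. Bsn and Stxbp5l were thus below pyramidal nuclei in all 4 interneuron classes, as were Erc2 and Snap25 with TMM scaling and the library block. Without that block Syt1 (-0.27), Erc2 (-0.23) and Rims1 (-0.21) in SST interneurons and Erc2 (-0.52, adjusted p = 0.0706), Snap25 (-0.34, adjusted p = 0.198) and Pclo (-0.31) in NPY interneurons were not called.

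In astrocytes no gene was higher (27.2% of all genes) and 8 of 10 were lower (26.4%), from Pclo at -1.18 to Erc2 at -2.65 (SE 0.288). Erc1 (0.17, SE 0.129, adjusted p = 0.282) did not pass. The astrocyte values differed between cohorts: Erc2 was at 815 and 665 CPM in the astrocytes of cohort 1, where background droplets held more UMIs, and at 66.0 to 180 CPM in cohort 2. With the profile of barcodes under 100 UMIs subtracted the 8 genes were called lower at larger sizes, from Rims2 at -1.61 to Bsn at -3.77 (-2.11 without subtraction), with Snap25 at -3.00 (-1.95) and Erc2 at -3.66. With the profile of background droplets subtracted the 8 genes were called at -1.58 to -3.28. The profile of barcodes under 100 UMIs held 9 and 21 Bsn UMIs in Run GH and Sed GH of cohort 1. It held 24 and 22 in Run GH and Run SI, and 884 and 151 in Sed GH and Sed SI, of cohort 2. In Sed GH of cohort 1 it put Bsn at 433 CPM, against 197 CPM in background droplets, so that the Bsn size of -3.77 is uncertain. PV interneurons set against SST interneurons had 1 gene higher (11.5% of all genes), Syt2 (adjusted p = 1.86e-17, in 6 of 6 libraries), and 6 lower (13%), from Erc2 at -0.70 to Syt1 and Rims1 at -0.27. Without the library block Erc2 (-0.68, adjusted p = 0.0601), Snap25 (-0.38), Pclo (-0.33), Rims1 (-0.28) and Syt1 (-0.27) were not called in that comparison. SST interneurons held 0 to 4 Syt2 UMIs per library, and no library had more than 4 in VIP or NPY interneurons or astrocytes, so that no size of a Syt2 fold change is given for any comparison with these classes.

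**Figure D2:**
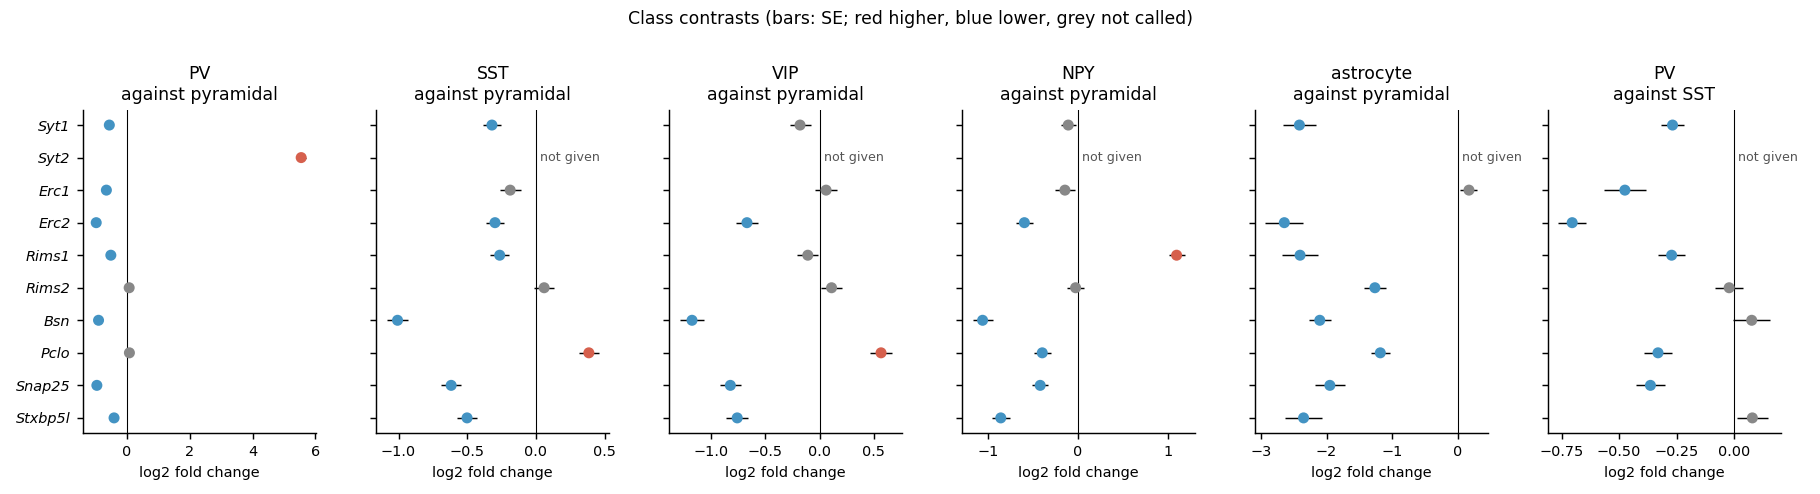
Fitted log2 fold change of each gene (points) in 6 class comparisons over 6 libraries. Bars give the SE, derived from the F value of the test. Points are red where called higher, blue where called lower and grey where not called. Syt2 at 5.55 stands apart in the first panel (not given in the others, where a class held 4 UMIs or fewer per library) and Rims1 at 1.09 in the NPY panel, while Rims2, with the TMM scaling used here, is grey in all panels but astrocytes, where it is at -1.26.

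The smaller differences depended on the scaling of the sums. With plain totals of UMIs in place of TMM, the median of all genes moved up by 0.16 (PV), 0.14 (SST), 0.11 (VIP), 0.25 (NPY) and 0.17 (astrocytes) on the log2 scale, and by 0.04 for PV against SST. The share of called genes that were higher moved from 47.2% to 62.1% (PV), from 45.2% to 61.6% (SST), from 45.5% to 56.7% (VIP), from 35.9% to 60.3% (NPY) and from 50.7% to 61.4% (astrocytes). Under plain totals Rims2 was called higher in PV (0.24), SST (0.22), VIP (0.25) and NPY interneurons (0.24, against -0.03 with TMM), Pclo in PV interneurons (0.25) and Erc1 in astrocytes (0.35). Erc2 and Rims1 in SST interneurons (-0.14 and -0.11) and Pclo and Snap25 in NPY interneurons (-0.13 and -0.15) were then no longer called. The directions given for Syt2, Bsn and Stxbp5l, for Rims1 in NPY interneurons and, apart from the losses given above, for Pclo in SST and VIP interneurons were called under both scalings, as was lower Erc2 in PV, VIP and NPY interneurons.

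The other 57 genes of vesicle release listed from textbook knowledge were spread in both directions. In PV interneurons 12 of 56 tested were higher (20.8% of all genes) and 25 lower (23.2%), with a median log2 fold change of -0.21 against 0.01 for all genes. The share higher was thus close to that of all genes. Synaptotagmin genes other than Syt1 and Syt2, with the Doc2 and rabphilin genes, were lower in 10 of 15 and higher in 2, with a median of -0.96. Vesicle proteins were higher in 7 of 16 and lower in 6, SNARE proteins and regulators were higher in 1 of 14 and lower in 3, and other scaffold and priming genes were higher in 2 of 11 and lower in 6. With plain totals the list had 19 higher (30% of all genes) and 21 lower (18.3%) in PV interneurons. In NPY interneurons 11 of the 15 synaptotagmin, Doc2 and rabphilin genes were lower (17.5% of all genes) and 2 higher (9.81%). Their median was -0.96 against -0.08 for all genes. With plain totals the whole list had 16 of 57 genes higher and 19 lower in NPY interneurons. There 4456 of 15357 genes tested were called in all, and 60.3% of those called were higher. The 15 synaptotagmin, Doc2 and rabphilin genes were not counted apart under plain totals. In astrocytes 42 of 56 were lower (26.4% of all genes) and 4 higher (27.2%, median -1.13 against 0.03).

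Within pyramidal nuclei the genes varied by layer. Only part of the nuclei carried a layer name, and the orders below hold among these. In Run GH of cohort 1 they were 2610 (layer 2/3), 1200 (layer 5), 200 (near-projecting layer 5) and 640 (layer 6) of 6480. In Run GH of cohort 2 they were 3382, 1909, 381 and 1407 of 7797. Rims1, Rims2, Snap25 and Stxbp5l had their highest level in layer 6 nuclei in 6 of 6 libraries. Rims1 had a median of 1634 CPM there (1514 to 1778) against 1105 CPM in layer 5 (961 to 1169), and Stxbp5l had 831 CPM (758 to 863) against 461 CPM in layer 2/3 (443 to 480), so that neither pair of ranges overlapped. Bsn was highest in layer 5 nuclei (median 251 CPM) and lowest in near-projecting layer 5 nuclei (146 CPM) in 6 of 6 libraries. Pclo had the opposite order in the latter: it was highest in near-projecting nuclei (621 CPM, 529 to 826) and lowest in layer 2/3 (415 CPM, 373 to 557) in 6 of 6 libraries, although the ranges over libraries overlapped. Syt1 and Rims2 were lowest in near-projecting nuclei in 6 of 6 libraries. No test between layers was made.

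How far the nuclei stood above free RNA differed by gene. In cohort 2 the CPM in pyramidal nuclei was 2.75 to 4.12 times that of background droplets for Erc2, 2.83 to 3.77 times for Rims1 and 2.46 to 3.19 times for Stxbp5l, but 1.21 to 1.36 times for Pclo, 1.10 to 1.23 times for Bsn and 0.78 to 1.09 times for Snap25. In cohort 1 the ratio was 0.68 to 1.27 for all genes but Bsn, at 1.99 and 2.31, and Syt2. Snap25 UMIs thus made up at least as large a share of free RNA as of pyramidal RNA in 4 of the 6 libraries. In PV interneurons Syt2 was 8.70 to 27.6 times its background level.

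**Figure D3:**
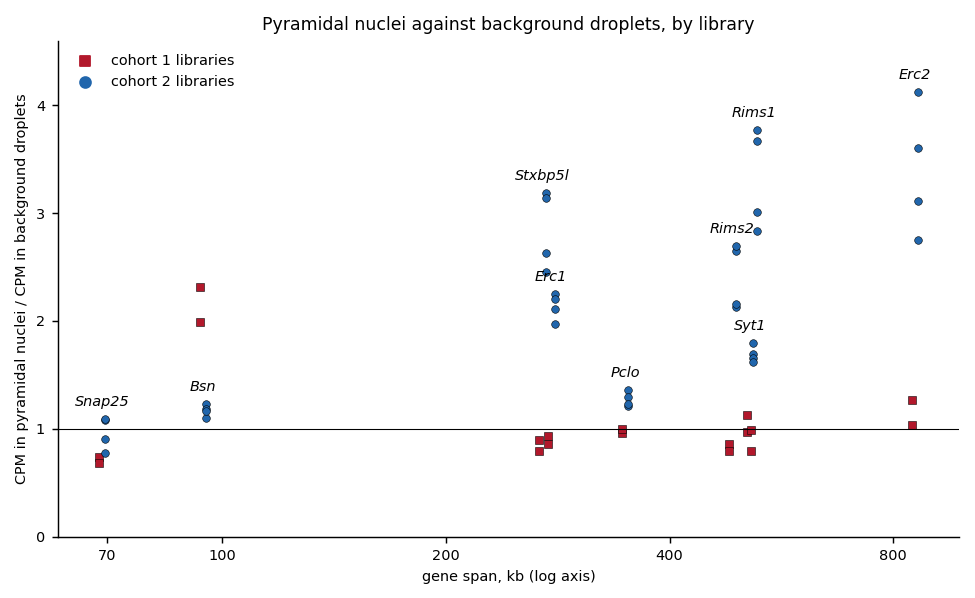
Ratio of CPM in pyramidal nuclei to CPM in background droplets for 9 genes (Syt2 left out) against gene span in kb on a log axis, with 1 point per library, red squares for cohort 1 and blue circles for cohort 2 (set slightly apart sideways). In cohort 2 Snap25 and Bsn, the shortest genes, lie at 0.78 to 1.23 and Erc2, the longest, at 2.75 to 4.12, while cohort 1 points lie near 1 except Bsn at 1.99 and 2.31.

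The maternal question, Run against Sed, was put to each class in a fit over all 6 libraries with terms for housing and cohort (2 residual degrees of freedom). Of 74 tests (10 genes in 8 classes, without Syt2 in 6 classes where its counts were too low) none was called, 10 had an unadjusted p under 0.05 (beside 6.43% of all tests in these classes), and DESeq2 called none of the 71 to which it gave an adjusted p. The share of all genes called was 0% in pyramidal nuclei, 0.158% in PV, 0.0494% in SST, 0.0277% in VIP and 0.0343% in NPY interneurons, 0.109% in astrocytes, 0% in oligodendrocytes and 0.105% in oligodendrocyte precursors. In pyramidal nuclei the median absolute log2 fold change of the 10 genes was 0.04, against 0.15 for all genes, and in PV interneurons 0.10, against 0.19. The genes compared were not matched by level, so that no trait of the 10 genes can be read from this.

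Snap25 was the gene with the largest maternal estimate in pyramidal nuclei, a log2 fold change of 0.24 (SE 0.087, adjusted p = 0.667). Its single pair ratios there were 0.30 in cohort 1 (exact 95% interval 0.28 to 0.33, counting error only), 0.39 in group-housed (0.36 to 0.43) and 0.18 in isolated animals of cohort 2 (0.15 to 0.20), against pair medians of all genes of -0.05, 0.12 and 0.09. The estimate was positive in all 8 classes. It was at 0.30 in PV (SE 0.121), 0.31 in SST, 0.17 in VIP and 0.29 in NPY interneurons. In astrocytes it was at 0.48, in oligodendrocytes at 0.80 and in oligodendrocyte precursors at 0.98 (SE 0.257, adjusted p = 0.0836). The classes share the same 6 libraries and their free RNA, so that these are not 8 independent estimates. The share of all genes positive in all 8 classes was not counted.

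In oligodendrocyte precursors Snap25 was at 617, 691 and 567 CPM in the Run libraries (GH of cohort 1, GH and SI of cohort 2) and at 408, 206 and 279 CPM in the Sed libraries. These levels rest on 258, 182 and 214 Snap25 UMIs in Run and on 91, 4 and 26 in Sed, where Sed GH of cohort 2 held 20 precursor nuclei. In oligodendrocytes Snap25 was at 661, 1097 and 831 against 402, 623 and 479 CPM. All 9 genes tested in oligodendrocytes had positive estimates, none called, from 0.23 (Pclo) to 0.80 (Snap25), with a median of 0.36 against 0.04 for all genes. Run and Sed libraries did not overlap in Snap25 level in either class. The share of all genes with such a separation was not counted. The test, a stricter measure, called 0.105% and 0% of all genes in these classes. Pyramidal markers moved with this difference: their sum was 841, 1013 and 880 CPM in the Run and 663, 514 and 718 CPM in the Sed precursors, and 1349, 1395 and 1290 against 879, 1377 and 971 CPM in oligodendrocytes, so that Run was the higher of each pair in both classes. Their part in the Snap25 difference was not tested. Background droplets held Snap25 at 1148 and 1015 CPM in Run GH and Sed GH of cohort 1 and at 1197, 1131, 1268 and 1209 CPM in Run GH, Run SI, Sed GH and Sed SI of cohort 2. With the profile of barcodes under 100 UMIs subtracted, Snap25 in the precursors was at 1.05 (SE 0.321, adjusted p = 0.455, not called, 0.0203% of all genes called). With that of background droplets, an alternative chosen after seeing the data, it was called at 1.41 (SE 0.314, adjusted p = 0.032, 0.0206% of all genes called). It was not called in the other alternatives, among them with scrublet doublets removed (0.67, the lowest estimate, adjusted p = 0.834), without Sed GH of cohort 2 (0.79, adjusted p = 0.652) and with DESeq2 (1.05, adjusted p = 1.00). The limit of 20 nuclei left no precursor fit with thinning, with at least 1000 genes or with clusters from log-normalized counts. In Sed GH of cohort 2, 6 precursor nuclei held at least 1000 UMIs. Scrublet marked a larger share of nuclei in the Run than in the Sed library of each pair.

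Bsn (-0.20, SE 0.0848) and Pclo (-0.15, SE 0.0778) had negative estimates in pyramidal nuclei, neither called. Leaving out Run GH of cohort 1 ended with Snap25 called higher at 0.19 (adjusted p = 0.0427) and Pclo called lower at -0.19 (adjusted p = 0.0491), and leaving out Sed GH of cohort 1 gave 0.19 (adjusted p = 0.0397) and -0.20 (adjusted p = 0.0467). In these fits 15.2% and 15.4% of all genes were called, so that 2 of 10 genes is near the background. Either step leaves cohort 1 with 1 library, which the cohort term takes up. In oligodendrocytes Syt1 (0.73), Erc2 (0.83) and Snap25 (0.81) were called higher in Run both without Run GH and without Sed GH of cohort 2, beside 4.42% and 2.86% of all genes.

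**Figure D4:**
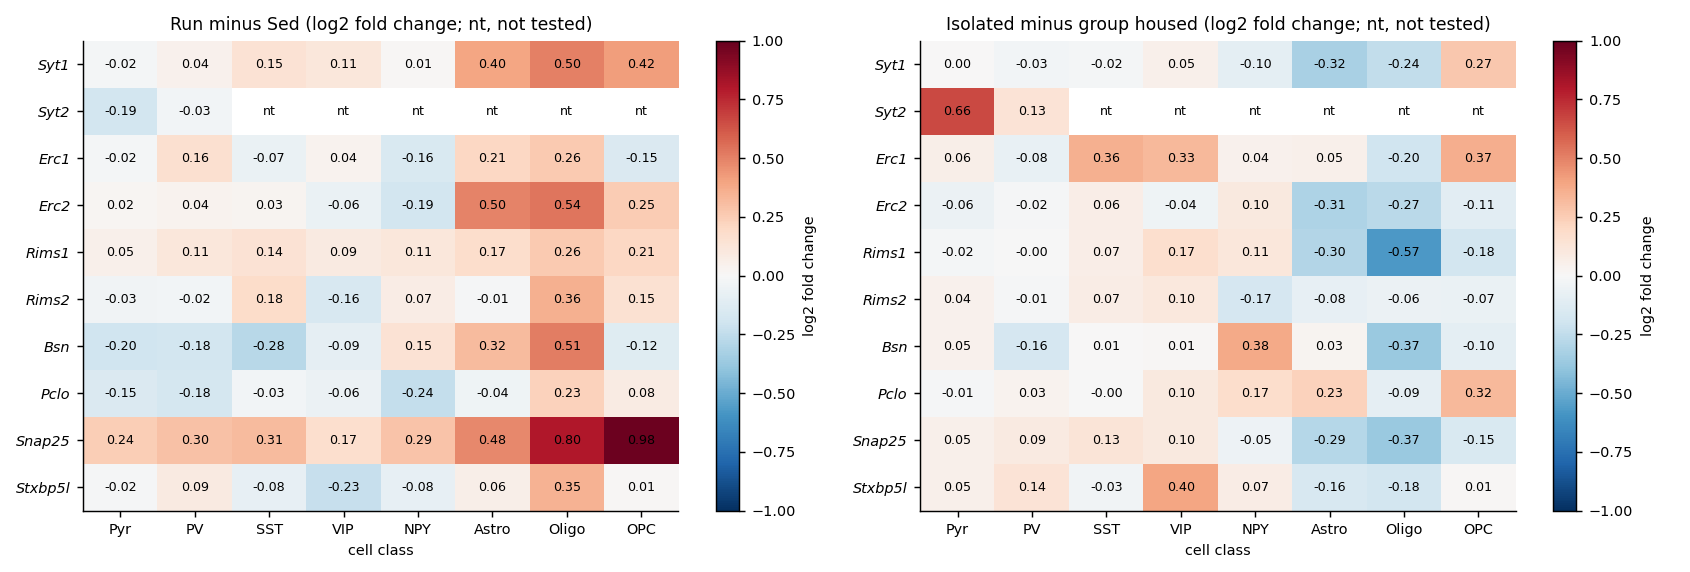
Fitted log2 fold changes of the 10 genes in 8 cell classes for Run minus Sed (left) and isolated minus group housed (right), red for positive and blue for negative, nt where not tested. Snap25 is positive in all 8 classes on the left, from 0.17 in VIP to 0.98 in oligodendrocyte precursors. No cell of either panel was called, and the classes share the same 6 libraries.

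The housing question was answered by the 4 libraries of cohort 2, with the group-housed pair of cohort 1 adding to the estimate of spread. None of 74 tests was called by edgeR or by DESeq2, and 0 had an unadjusted p under 0.05 (2.47% of all tests). Of all genes, 0% were called in pyramidal nuclei, PV, VIP and NPY interneurons and oligodendrocytes, 0.00988% in SST interneurons, 0.0218% in astrocytes and 0.0175% in oligodendrocyte precursors. In pyramidal nuclei 9 of the 10 estimates lay between -0.06 and 0.06, and Syt2, which rests on 10 to 78 UMIs per library there, was at 0.66 (SE 0.418). In PV interneurons estimates ran from -0.16 (Bsn, SE 0.199) to 0.14 (Stxbp5l, SE 0.155). Single pairs in pyramidal nuclei went both ways: Snap25 was at -0.07 (-0.09 to -0.05) in Run and at 0.14 (0.11 to 0.18) in Sed, and Bsn at 0.14 (0.10 to 0.19) in Run and at -0.08 (-0.15 to -0.00) in Sed. Without Run GH of cohort 2, Rims1 was called lower with isolation in oligodendrocytes at -1.10 (adjusted p = 0.026), beside 1.52% of all genes.

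**Figure D5:**
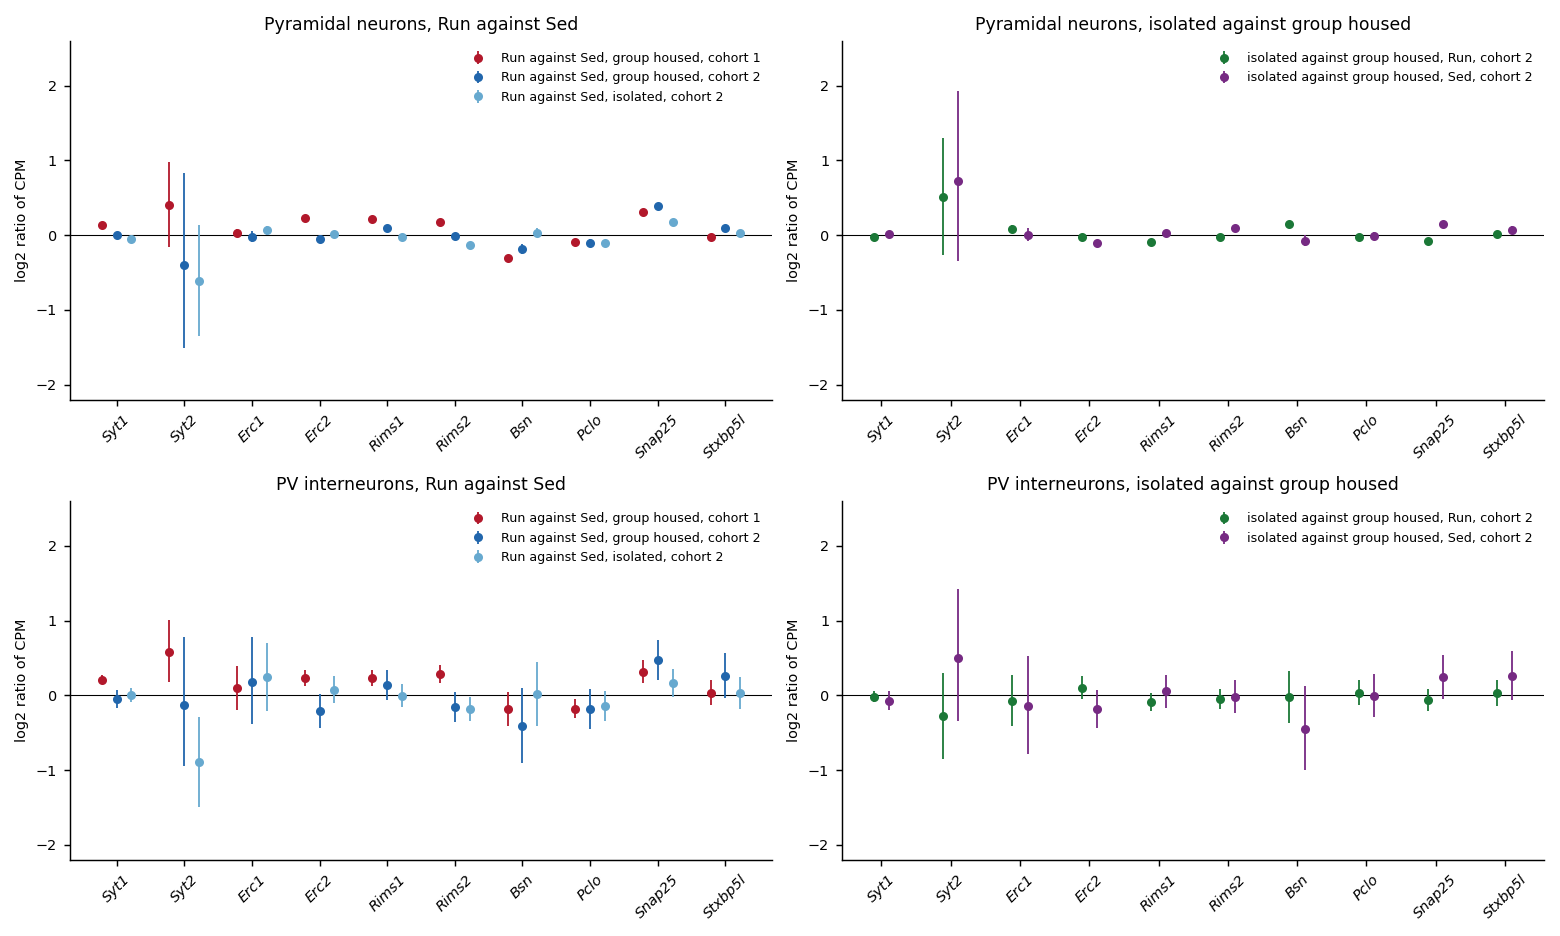
Log2 ratio of CPM between single libraries for each gene, with exact 95% intervals of the counts as bars, for Run against Sed (left) and isolated against group housed (right) in pyramidal nuclei (top) and PV interneurons (bottom). Snap25 is above 0 in all 3 Run against Sed pairs of pyramidal nuclei (0.18 to 0.39), and Syt2 in PV interneurons runs from 0.58 in cohort 1 to -0.90 in isolated animals. Pairs of cohort 2 share libraries between panels.

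Of the other 57 release genes, none was called for the maternal or the housing contrast among 57 tested in pyramidal nuclei and 52 in PV interneurons. For the maternal contrast 9 and 4 of them had an unadjusted p under 0.05 (7.42% and 6.14% of all genes), for housing 2 and 1 (1.03% and 1.97%). DESeq2 called none of those to which it gave an adjusted p, which were 48 and 15 for the maternal contrast and 57 and 52 for housing. Their median maternal estimate in pyramidal nuclei was -0.01 (all genes -0.00), and among roles it ran from -0.17 for scaffold and priming genes to 0.05 for SNARE proteins and their regulators.

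Whether the maternal difference was itself different between housings or cohorts was tested by interaction terms (1 residual degree of freedom). For housing none of 74 tests was called and 3 had an unadjusted p under 0.05 (2.33% of all tests), beside 0% of all genes called in pyramidal and 0% in PV nuclei. DESeq2 was not run on that term. The largest in PV interneurons was Syt2 at -1.32 (SE 0.477, adjusted p = 1), where the pair ratio was -0.12 (-0.94 to 0.78) in group-housed and -0.90 (-1.50 to -0.29) in isolated animals of cohort 2. The fit also takes in the group-housed pair of cohort 1, at 0.58 (0.18 to 1.00), so that its estimate includes a difference between cohorts.

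Between cohorts 3 tests were called. In pyramidal nuclei, where 11.6% of all genes were called, Erc2 differed by -0.37 (SE 0.113, adjusted p = 0.019) and Rims2 by -0.36 (SE 0.117, adjusted p = 0.0326). Erc2 pair ratios there were 0.23 (0.22 to 0.25) in cohort 1 and -0.06 and 0.02 in the group-housed and isolated pairs of cohort 2. Rims2 was at 804 CPM in Run GH and 714 in Sed GH of cohort 1, and at 699.7, 687, 704 and 749.7 in Run GH, Run SI, Sed GH and Sed SI of cohort 2, so that the Run library was the higher of its pair in cohort 1 only. In PV interneurons, where 1.02% of all genes were called, Syt2 differed by -1.28 (SE 0.363, adjusted p = 0.0401), from a pair ratio of 0.58 (0.18 to 1.00) in cohort 1. With plain totals of UMIs the values were -0.25, -0.24 and -1.18 and none of the 3 was called, nor by DESeq2. That scaling moved the median of all genes by 0.12 in pyramidal and 0.10 in PV nuclei, and the share of called genes that were higher from 36.7% to 57% and from 10.7% to 25.3%. Of the 57 other release genes, 4 were higher and 7 lower in pyramidal nuclei with TMM (4.28% and 7.36% of all genes), 9 and 4 with plain totals (6.74% and 5.08%), and DESeq2 called none of 56.

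The cohorts also differed in level, whatever the group. In pyramidal nuclei Bsn was at 368 and 456 CPM in cohort 1 against 207 to 235 in cohort 2, Pclo at 622 and 665 against 429 to 468, and Erc2 at 1623 and 1905 against 1213 to 1304. Stxbp5l did not follow, at 533 and 545 against 527 to 566 CPM, and Snap25 went the other way, at 689.8 and 851 against 987 to 1297 CPM. In PV interneurons the ranges of Bsn (229.9 and 261 against 124 to 169 CPM), Pclo (746 and 845 against 489 to 557) and Erc2 (1039 and 1222 against 634 to 737) lay apart in the same way. The share of all genes whose cohort ranges lay apart was not counted, so that no trait of these genes can be read from this. Cohort 1 nuclei also held more UMIs and more background, so that cohort, depth, behavioural history and choice by rank cannot be told apart here.

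Over the 54 sums of 9 classes and 6 libraries, the pairs among the genes other than Syt2 and Erc1 had correlations of 0.44 (Pclo with Snap25) to 0.89 (Erc2 with Stxbp5l), with Bsn and Pclo at the low end (0.47 with each other). Syt1 correlated with Erc2 (Pearson's r = 0.86), Rims2 (0.84), Snap25 (0.84) and Rims1 (0.83), while Syt2 with Syt1 was at 0.08 and Erc1 with Erc2 at 0.00. These values describe log2(CPM + 1) over points that share libraries, depth and free RNA. Among 7146 or 7147 other genes with a mean of at least 20 CPM, the pattern of Syt2 was most like that of Esrrg (0.78), Slc35f3 (0.68) and Myo5b (0.65), that of Erc1 most like Sorcs2 (0.75), Eda (0.72) and Fgd4 (0.71), and that of Rims1 most like Kctd16 (0.92), Gpr158 (0.91) and Ftx (0.90). The nearest gene was Epha6 for Syt1 (0.93) and Snap25 (0.85), Ksr2 for Erc2 (0.95), Cadps for Rims2 (0.94), Osbpl10 for Bsn (0.90), Col19a1 for Pclo (0.87) and Nrg3 for Stxbp5l (0.95).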

How the data were processed

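Single nucleus RNA-seq of the PL was measured in 6 libraries. The authors deposited raw UMI counts per gene and barcode, with introns counted against mm10. The submitters' processing notes name Cell Ranger 6.0.0, while the file headers name Cell Ranger 4. Strand settings are not given in the sources used here. No per-sample column was left unused.

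Barcodes with 500 to 4000 genes, at most 1% mitochondrial UMIs and UMIs of at least the 99th percentile among the largest barcodes (as many as the study kept in that library) divided by 10 were taken as nuclei. They were clustered per cohort with scanpy 1.11.5 (3000 genes by Pearson residuals, without the 10 genes and the release list, 35 components, 20 neighbours, Leiden resolution 0.6), with a further round for the inhibitory nuclei. Names came from fixed marker lists, by a scoring rule that was adjusted after the clusters were seen. Doublets were limited by the 4000 gene maximum, and scrublet, which marked 1.09% to 6.75% of nuclei, served as an alternative.

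UMIs were summed per library and class, for the 8 classes with at least 20 nuclei in every library (microglia, with 19 in Sed GH of cohort 1, have levels but no test). edgeR 4.0.16 in R 4.3.3 was used with TMM scaling, filterByExpr and the quasi-likelihood test, with maternal environment, housing and cohort as terms, or with class and library. Adjusted p values are Benjamini-Hochberg values over all genes tested, with a threshold of 0.05. Each SE given is the absolute log2 fold change divided by the square root of the F value of its edgeR test. The fits were tested on simulated counts. Libraries are pools, so p values concern the spread between these 6 libraries only. With so few libraries, edgeR takes that spread partly from all genes together and not from each gene alone. Single pairs have exact 95% intervals and no test. Cohort is the number the titles share, and animals differ between groups, so same-numbered libraries were blocked by cohort and not paired by animal. Per kb levels divide by the gene span.

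All 10 genes are named. A release list gene was to be named where it passed the maternal or housing test in pyramidal or PV nuclei, which none did, and each gene's 3 most alike genes were taken by Pearson correlation. The genes, lists and tests were chosen with earlier results of these data known. Alternatives were DESeq2 1.42.0, no low-count filter, no block, each library left out, cohort 2 only, group-housed libraries only, 2 subtractions of free RNA, thinning to 1000 UMIs, at least 1000 genes, scrublet, other clusterings, and (chosen after seeing the data) the background droplet subtraction, a pyramidal sum without a cohort 1 cluster of 421 nuclei led by Gm42418 and mitochondrial transcripts, total UMI scaling and all alternatives of the cohort interaction.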

Additional observations from a re-analysis of the deposited data

Results flagged for a closer look

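The difference of the maternal contrast between cohorts (Run minus Sed in cohort 2 less that in cohort 1) passed its test for 3 of the 74 tests. Erc2 in pyramidal nuclei differed by -0.37 on the log2 scale: Run GH was above Sed GH in cohort 1 (1905 against 1623 CPM), and the pairs of cohort 2 stood at 1254 against 1304 CPM (GH) and 1227 against 1213 CPM (SI). It was not called by DESeq2 (adjusted p = 0.464), under total UMI scaling (-0.25, adjusted p = 0.12) or with at least 1000 genes per nucleus (adjusted p = 0.0748), while the adjusted p over its 11 settings ran from 0.00295 to 0.464. Rims2 in pyramidal nuclei differed by -0.36, and was not called by DESeq2 (adjusted p = 0.534), under total UMI scaling (-0.24, adjusted p = 0.171), thinned (adjusted p = 0.106) or with at least 1000 genes (adjusted p = 0.128). Syt2 in PV interneurons differed by -1.28 and was the least stable: 7 of its alternatives were not called, with the smallest value thinned (-0.85, SE 0.672, from 16 to 189 UMIs per library before thinning). In each, the direction was kept in all alternatives run. Cohort, behavioural history, choice by rank, depth and background cannot be told apart in these values.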

How the results depend on the processing

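For the maternal contrast, counts of the 10 genes called over all classes were 0 in the main fit, 1 with the background droplet profile subtracted, and 0 to 3 on leaving out a library. Counts of all genes called in pyramidal nuclei (0 in the main fit) were 56 with DESeq2, 9 without the low-count filter, 7 thinned, 2547 with cohort 2 only, and 0 to 2861 on leaving out a library. In PV interneurons (16) they were 0 with no replicate block (no cohort term), 122 with cohort 2 only, 1 with either subtraction of free RNA, and 7 to 109 on leaving out a library. For housing, leaving out a library gave 0 to 1 for the 10 genes, 0 to 49 for all genes in pyramidal nuclei (1 with DESeq2, 19 with cohort 2 only) and 0 to 2 in PV interneurons. For maternal by cohort (3 of the 10 genes), the counts were 0 with DESeq2, 0 with at least 1000 genes, 0 under total UMI scaling, 1 thinned and 5 with either subtraction. All genes called numbered 410 (DESeq2) and 781 (thinned) against 2180 in pyramidal nuclei, and 1 (DESeq2), 443 (barcodes under 100 UMIs subtracted), 5 (thinned) and 7 (at least 1000 genes) against 112 in PV interneurons. Leaving out a library leaves that fit no residual degrees of freedom. With no replicate block (no library term) the class comparisons called 3 of the 10 genes for SST (7 with it), 3 for NPY (6) and 2 for PV against SST (7), and the block changed no other count of theirs by over 1.5 times. Leaving out a library gave 8 to 8 (PV), 7 to 8 (SST), 5 to 5 (VIP), 6 to 6 (NPY), 8 to 8 (astrocytes) and 7 to 7 (PV against SST). Rims2 in NPY interneurons was reversed under total UMI scaling (0.24 against -0.03). Of 979 alternative values of single genes in the class comparisons, 947 kept their side of the threshold with no change of sign in a called value, and 26 values not called changed sign. With at least 1000 genes, VIP interneurons and astrocytes gave no value. The cause of these shifts was not tested. Syt2 rests on few UMIs in PV interneurons, with 16 in Sed GH of cohort 2.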

Other observations

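Snap25 and Bsn, with the shortest spans of the 10 genes (69.0 and 94.4 kb), had the lowest cohort 2 ratios of pyramidal nuclei to background droplets after Syt2, with medians of 0.99 and 1.17, and Erc2 (856 kb) and Rims1 (520 kb) had the highest, at 3.36 and 3.34. Stxbp5l (270.0 kb) at 2.88, Erc1 (277 kb) at 2.16, Pclo (349 kb) at 1.26 and Syt1 (513 kb) at 1.67 did not follow the order of spans, and exons cover 1.14% (Erc2) to 16.9% (Bsn) of a span.

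Microglial sums, which rest on 19 to 211 nuclei per library, held the release genes at levels near those of neurons: Snap25 at 725 to 934 CPM and Rims1 at 954 to 1195 CPM, beside pyramidal markers at 1109 to 1464 CPM. In cohort 2 the microglial ratio to background droplets was 2.23 to 3.40 for Rims1 and 0.28 to 0.54 in astrocytes.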
